A study of Mus musculus with 16 samples.

Results

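CD8+ T cells from MC38 tumors of *Aire*-/- mice were compared between anti-PD1 and isotype antibody, across all genes. A cell barcode of the tumor CD8+ sort was taken when it had at least 1 UMI (unique molecular identifier, 1 for each RNA molecule counted) of Cd8a or Cd8b1, at least 1 over Cd3d, Cd3e and Cd3g, at most 1 over C1qa, C1qb and C1qc, and 0 of Siglech. These limits keep cells with CD8 and the CD3 complex and leave out macrophages and plasmacytoid dendritic cells. Of the 37609 barcodes in the study, 3762 were taken. They were 1706 of the 1860 barcodes of the isotype library (91.7%, 95% exact Clopper-Pearson interval 90.4 to 92.9) and 2056 of the 2214 barcodes of the anti-PD1 library (92.9%, 91.7 to 93.9).

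The study measured single-cell RNA in *Aire*-/- and *Aire*+/+ mice that carried MC38, a mouse colon carcinoma line, and asked how loss of Aire changes the response to PD1 blockade. Its 16 libraries are 1 for each genotype, treatment, tissue (tumor or spleen) and sort (CD45+ or CD8+). Both groups here were female C57BL/6 mice that lack Aire, 8 weeks of age, given 5 mg/kg of anti-PD1 or of its isotype control, with tumors taken on day 19. The cells of several mice were pooled for each library, so that the spread between mice is not in the data, and with 1 library a group no test, p-value or standard error is possible. All intervals of levels, shares and ratios are for 95% and cover counting error only.

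Aire drives the display of tissue antigens in the thymus and so helps to purge T cells against the body's own tissues. Loss of Aire leaves more of these self-reactive T cells in the body. PD1 is an inhibitory receptor on activated T cells, and antibodies that block it release signalling through the T cell receptor and CD28. Tumor CD8+ cells range from memory-like cells with lymphoid homing receptors, over transitional cells with Gzmk, to killer cells with many granzymes and inhibitory receptors.

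The taken cells held 20212940 UMIs in the isotype library and 21580728 in the anti-PD1 library. Their median depth was 10035 UMIs and 2624 genes per cell under isotype, and 8822 UMIs and 2462 genes under anti-PD1. Mitochondrial rows gave 1.82% and 2.02% of the UMIs. Depth per cell was thus lower under anti-PD1, so shares of cells are also given after every cell was thinned to 2000 UMIs. Between any 2 of the 16 libraries, 2 to 18 barcodes were shared (median 7 over 120 pairs).

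Markers of the label were counted over the cells. The CD8 T cell markers, 15 of 18 found in the tables and all 15 detected, summed to 12901 CPM (counts per 1000000 UMIs, with a 95% exact Poisson interval of 12852 to 12951) under isotype and 12926 CPM under anti-PD1 (12878 to 12974), with Cd3g the most abundant gene. Cd3g, Cd3d, Cd3e, Cd8a and Cd8b1 belong to the rule that chose the cells, so their levels are no check of it. Of the others, Thy1 had 1872 and 1636 CPM and Lck 677 and 696 CPM, both chosen after their values were seen. Trac, Trbc1 and Trbc2 are not in the tables. Cd4 was found in 13 and 22 cells, Foxp3, the regulatory T cell factor, in 15 and 6, and Ncr1, an NK receptor, in 1 and 3. Aire had 1 UMI under isotype and 0 under anti-PD1, so these cells give no check of the genotype.

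Ccl5, Gzmk, Itgae, Tox and Pim1 were at least 1.5-fold higher under anti-PD1. So were 7 of 34 immediate early genes (20.6%, beside 1.40% of the 9592 genes tested). Gzmc was at least 1.5-fold lower, with Gzmf, Ccl1, Xcl1 and Ccr7 lower by less. The levels of Pdcd1, Gzmb, Prf1 and Ifng and most other genes were close in both libraries. Ccl5 stood at 1943 CPM under isotype (1923 to 1962) and 3886 CPM under anti-PD1 (3860 to 3913), a log2 ratio of anti-PD1 over isotype of 1.0 (conditional exact interval 0.98 to 1.02). Gzmc stood at 2478 CPM (2456 to 2500) and 1645 CPM (1627 to 1662), a log2 ratio of -0.59 (-0.61 to -0.57). Genes for glycolysis were slightly lower as a list, with 30 of 32 below 0, beside 3957 of all 9592 genes tested.

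Of the 9592 genes with at least 100 UMIs over both libraries, which are the genes tested, 134 were at least 1.5-fold higher under anti-PD1 (1.40%) and 49 at least 1.5-fold lower (0.511%). The median log2 ratio of all genes tested was 0.03, with 5635 of the 9592 above 0 and 3957 below. The median size of the log2 ratio, whatever its sign, was 0.10, and its 90th percentile was 0.32. Most of the genes past 1.5-fold were weakly expressed: 96 of the 134 and 41 of the 49 stayed under 20 CPM in both libraries. Among the 5150 genes with at least 20 CPM in either library, 38 were higher and 8 lower. At 50 UMIs in place of 100 the counts were 251 and 111, and at 300 they were 55 and 16.

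**Figure D1:**
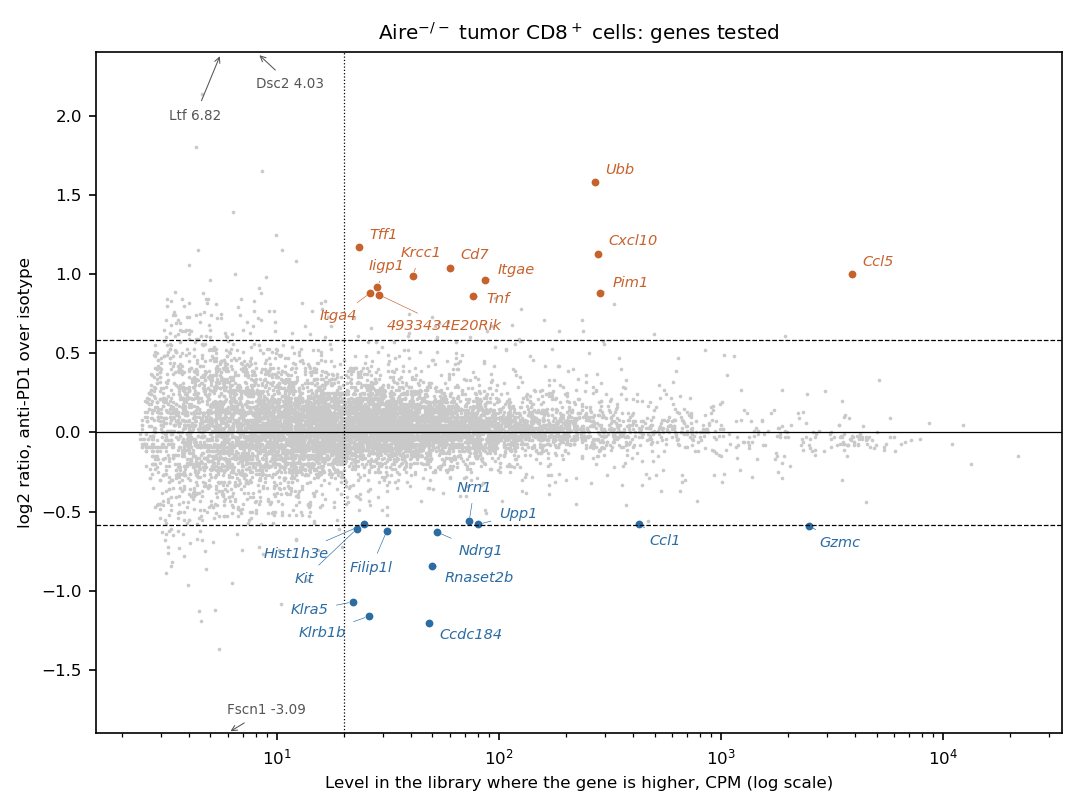
Each point is 1 of the 9592 genes tested, with its level in CPM in the library where it is higher (log scale) against its log2 ratio of anti-PD1 over isotype. The dashed lines mark 1.5-fold and the dotted line 20 CPM; orange and blue name the 12 genes with the largest and the 12 with the smallest ratio among genes at or above 20 CPM, from Ubb at 1.58 to Ccdc184 at -1.20, and 3 genes beyond the axis are written with their ratios.

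Among genes at 20 CPM or more, Ubb had the largest ratio. Ubb, 1 of the genes that encode ubiquitin, had 89.7 CPM under isotype (85.7 to 94.0) and 269 CPM under anti-PD1 (262 to 276), a log2 ratio of 1.58 (1.51 to 1.66). It was spread widely: after every cell was thinned to 2000 UMIs, 16.1% (14.4 to 18.0) of isotype cells and 41.9% (39.8 to 44.1) of anti-PD1 cells had a UMI. Macrophage barcodes of the CD45+ sort had 36.0% and 37.8%, which differ little from each other. In the CD45+ sort of the same tumors the log2 ratio of Ubb was 0.37, so that its size was not found again in the other capture of these mice. Ubb had 178 and 229.7 CPM in that sort, and 188 and 208 CPM in the spleen CD8+ sort of *Aire*-/- mice. In *Aire*+/+ tumors it had 163 and 231 CPM, a ratio of 0.50. The isotype level here, 89.7 CPM, was the lowest of these levels and the anti-PD1 level, 269 CPM, the highest. The cause was not tested.

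Others of the 12 highest genes belong to the groups described further on, among them Cxcl10 (1.13), Ccl5 (1.0), Itgae (0.96), Iigp1 (0.92), Itga4 (0.88), Pim1 (0.88) and Tnf (0.86). Cd7, an immunoglobulin-family receptor of T and NK cells, had 29.2 CPM and 59.9 CPM, a log2 ratio of 1.04 (0.89 to 1.18). Tff1, a trefoil peptide best known from stomach mucus, had 10.4 CPM and 23.4 CPM, a ratio of 1.17 (0.93 to 1.41), with UMIs in 67 and 150 cells, and 1.85 without cycling cells. Krcc1 (0.99) and 4933434E20Rik (0.87) complete the 12. The ratio of 4933434E20Rik fell to 0.35, below 1.5-fold, after cells were thinned to 2000 UMIs. In the CD8+ sort Krcc1 had 20.6 and 40.8 CPM and 4933434E20Rik 15.7 and 28.7 CPM. In the CD45+ sort Krcc1 had 42.3 and 37.3 CPM and 4933434E20Rik 29.0 and 30.0 CPM. Krcc1 and Tff1 had ratios of -0.18 and -0.38 in the CD45+ sort, and 4933434E20Rik had 0.05. Cxcl10 had 0.57 there, Tnf 0.44, Cd7 0.30 and Itga4 0.29, below 1.5-fold, while Ccl5, Itgae and Pim1 stayed past it.

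The 12 lowest genes were led by Ccdc184. Ccdc184, a coiled-coil gene, had 48.2 CPM and 21.0 CPM, a log2 ratio of -1.20 (-1.36 to -1.04), and the CD45+ sort gave -1.03. Rnaset2b had 49.8 CPM and 27.8 CPM, a ratio of -0.84 (-0.99 to -0.69), but its near-identical paralog makes its count uncertain. Upp1, an enzyme of uridine breakdown, had -0.58, Nrn1, a surface protein first described on neurons, -0.56, and Filip1l -0.62. The other 7 are Klrb1b, Klra5, Ndrg1, Kit, Gzmc, Ccl1 and Hist1h3e, each given with its group.

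Chemokines, which draw other immune cells, moved both ways. Of 12 chemokine genes 8 were tested, 3 were at least 1.5-fold higher (37.5%, beside 1.40% of all genes tested) and 1 lower (12.5%, beside 0.511%), and their median log2 ratio was 0.30 beside 0.03 for all genes tested. The lower one, Cxcl2, had 80 and 44 UMIs and a ratio of -0.96, and was chosen after its values were seen. Cxcl10, a ligand of Cxcr3 that interferon induces, had 127 CPM under isotype (122 to 132) and 278 CPM under anti-PD1 (271 to 285), a log2 ratio of 1.13 (1.07 to 1.20). Its UMIs were in few cells, 14% and 19.4%, and the 10 richest cells held 38.7% and 28.3% of them. Macrophage barcodes had it in 73.3% and 58.9%, so a UMI in a T cell may be free RNA, a part that was not tested.

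Ccl5 had the largest gain in molecules among the chemokines. It was found in 56.7% (54.4 to 59.1) of isotype cells and 76.8% (74.9 to 78.6) of anti-PD1 cells, and after thinning in 45.0% (42.6 to 47.4) and 64.9% (62.8 to 66.9). No cell was left out by the thinning in either library. Macrophage barcodes, thinned alike, had Ccl5 in 31.0% and 45.9%, at median depths of 14096 and 11565 UMIs before thinning. Positive T cells also held more of it, 40.6 UMIs each under isotype and 53.1 under anti-PD1. The higher sum thus came with both a larger share of cells with a UMI of Ccl5 and more UMIs per positive cell. The part of free RNA in these shares was not tested.

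Ccl1 and Xcl1 were also lower, by less than 1.5-fold. Ccl1, a ligand of Ccr8, had 427 CPM (418 to 436) and 286 CPM (279 to 293), a log2 ratio of -0.58 (-0.63 to -0.53). Xcl1, which attracts cross-presenting dendritic cells, had 371 CPM (362 to 379) and 269.5 CPM (263 to 277), a ratio of -0.46 (-0.51 to -0.41). Thinned shares of cells were 13% and 8.51% for Ccl1 and 14% and 9.92% for Xcl1. Macrophage barcodes had Ccl1 in 0 of 516 and 0 of 185, which allows up to 0.581% and 1.62%, and Xcl1 in 0.388% and 0.541%. Mean UMIs per positive cell were close, 23.7 and 22.8 for Ccl1 and 18.5 and 17.4 for Xcl1. For both genes fewer cells were positive under anti-PD1.

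Among 13 effector cytokines tested, 2 were higher (15.4%, beside 1.40%), none was lower and the median log2 ratio was 0.00. Tnf had 42.0 CPM under isotype (39.2 to 44.9) and 76.5 CPM under anti-PD1 (72.8 to 80.2), a ratio of 0.86 (0.74 to 0.99). Ltb, the most abundant cytokine gene of the list, had 757 and 695 CPM, and Tnfsf11, which encodes RANKL, 149.5 and 173 CPM, while Il16 had a ratio of 0.11. Ifng, which was chosen after its values were seen, had 702 CPM and 659 CPM, a ratio of -0.09. The other higher member, Il2, was also chosen after its values were seen: its 55 and 184 UMIs came from 12 and 17 cells, and 1 cell held 52.7% and 37.5% of them.

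Integrins and other genes of tissue residency came next. The list had 28 tested members, 2 at least 1.5-fold higher (7.14%, beside 1.40%) and 0 lower, with a median of 0.03. Vim, an intermediate filament gene and the most abundant, had 3784 and 3686 CPM. Itgae, the CD103 chain that pairs with Itgb7 and binds E-cadherin on epithelium, had 44.4 CPM under isotype (41.5 to 47.4) and 86.6 CPM under anti-PD1 (82.7 to 90.6), a ratio of 0.96 (0.85 to 1.08). Its partner Itgb7 had 119 CPM and 172 CPM, a ratio of 0.53 (0.46 to 0.61), below 1.5-fold. Itga4, which also pairs with Itgb7, had 14.2 and 26.2 CPM, a ratio of 0.88 (0.68 to 1.09). Cd69, which holds T cells in tissue, had 458 and 636 CPM, a ratio of 0.47 (0.44 to 0.51).

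The higher level of Itgae was seen as more positive cells. Its share was 16.4% (14.7 to 18.3) and 27.3% (25.4 to 29.3) unthinned, and 8.44% (7.16 to 9.86) and 16.4% (14.8 to 18.1) thinned. Macrophage barcodes had it in 0.388% and in 0 of 185 thinned, where a floor of 3 counts gives 1.62%. All macrophage barcodes come from the CD45+ sort, where fewer barcodes are T cells, so they do not measure free T cell RNA in the CD8+ sort. Positive cells held 3.20 and 3.33 UMIs each.

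Receptors for chemokines and for exit from tissue had 13 tested members, 1 higher (7.69%, beside 1.40%) and 0 lower, and a median of 0.07. Cxcr6, the most abundant, had 802 CPM and 898 CPM. Ccr2 had 29.9 and 49.7 CPM, a log2 ratio of 0.73 (0.59 to 0.88), but -0.12 in the CD45+ sort. Cxcr3, the receptor of Cxcl10, had 43.2 CPM (40.4 to 46.2) and 64.1 CPM (60.8 to 67.6), a ratio of 0.57 (0.45 to 0.69), with thinned shares of 10.4% and 15.9% of cells. S1pr1, which guides T cells out of tissue, had a ratio of 0.52 (0.37 to 0.68). Ccr7, which guides them to lymph nodes, was lower, as described with the memory genes.

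The granzyme family split. Of 18 tested genes of granzymes and lytic granules, 1 was at least 1.5-fold higher and 1 lower (5.56% each, beside 1.40% and 0.511% of all genes tested), with a median of -0.05. Gzmf, the most abundant under isotype, had 4474 CPM under isotype (4445 to 4504) and 3300 CPM under anti-PD1 (3276 to 3324), a log2 ratio of -0.44 (-0.45 to -0.43). Gzmg, its neighbour in the same gene cluster, had 103 and 76.6 CPM, a ratio of -0.43, with 89.8% of its anti-PD1 UMIs in 10 cells. The ratio of Gzmg was -1.22 without cycling cells and -1.13 without the 5% deepest cells. It was -2.54 in the CD45+ sort and -2.00 in *Aire*+/+ tumors. Gzmc had -0.59. Gzmk, a tryptase-like granzyme of a different cluster, had 72.7 CPM (69.1 to 76.5) and 125 CPM (121 to 130.0), a ratio of 0.78 (0.69 to 0.88). The cytotoxic genes Gzmb and Prf1, chosen after their values were seen, had ratios of 0.04 and 0.08, and Gzmb was the most abundant under anti-PD1 with 4341 CPM.

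By cells, Gzmk was found in 22.7% (20.8 to 24.8) and 34.2% (32.1 to 36.3) unthinned, and in 11% (9.57 to 12.6) and 18.6% (17.0 to 20.4) thinned. It was in 0 of 516 and 0 of 185 macrophage barcodes, where a floor of 3 counts gives 0.581% and 1.62%. Gzmf was found in 23.7% and 19.2% thinned, and Gzmc in 25.9% and 19.5%, where macrophage barcodes had at most 2.71%. Mean UMIs per positive cell were 164 and 121 for Gzmf, 78.6 and 56.7 for Gzmc, and 3.79 and 3.84 for Gzmk. These means are from unthinned cells, which were shallower under anti-PD1.

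Cells were also split by Gzmf and Gzmk after thinning, classes that were chosen after their values were seen. Cells with Gzmf and no Gzmk were 22.8% (20.8 to 24.9) of isotype and 16.8% (15.2 to 18.5) of anti-PD1 cells, and those with Gzmk and no Gzmf 10.1% (8.69 to 11.6) and 16.2% (14.7 to 17.9). Both genes were in 0.938% and 2.38% of cells, and neither in 66.2% and 64.5%. Doublets were not removed. In the isotype library the Gzmk cells were richer in Ccl5, 8664 CPM against 554 in the Gzmf cells, and in Itgae, 101 against 15.7 CPM. The Gzmf cells were deeper, with a median of 13822 UMIs against 6902.

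Some differences were also present within these classes. Ccl5 had 554 and 1124 CPM in the Gzmf cells, 8664 and 12215 CPM in the Gzmk cells, and 1807 and 3367 CPM in cells with neither. Tox had 11.9 and 32.4 CPM, 26.8 and 53.5 CPM, and 28.7 and 38.7 CPM in the same order. For Ccl5 and Tox the anti-PD1 value was the higher in each of these 3 classes, while in the 16 and 49 cells with both granzymes Ccl5 was lower, at 4304 and 3692 CPM. Itgae was near level in the Gzmf cells, at 15.7 and 14.4 CPM on 94 and 76 UMIs, and higher in the Gzmk cells, at 101 and 163 CPM. Gzmc within the Gzmf cells had 6097 and 4700 CPM. Ccl1 had 559.7 and 389.5 CPM in cells with neither.

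Inhibitory receptors were near level. Their list, which also holds Kit, had 16 tested members, 0 higher and 1 lower (Kit, 6.25%, beside 0.511% of all genes tested), and a median log2 ratio of 0.06. Pdcd1, which encodes the target of the antibody, had 801 CPM under isotype (788 to 813) and 784 CPM under anti-PD1 (772 to 796), a ratio of -0.03 (-0.06 to 0.00). Lag3, the most abundant, had 909 and 841 CPM, Nt5e, which encodes CD73, 39.5 and 31.1 CPM, Cd244 29.4 and 35.4 CPM, and the gene of VISTA, listed as 4632428N05Rik, 82.9 and 94.2 CPM. Kit, a receptor tyrosine kinase best known from stem and mast cells, had 22.8 CPM and 14.9 CPM, a ratio of -0.61 (-0.82 to -0.40), and -1.0 in the CD45+ sort.

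Costimulatory receptors had 14 tested members, none past 1.5-fold and 9 below 0, with a median of -0.07. Tnfrsf9, which encodes 4-1BB, had 1370 CPM (1354 to 1386) and 1129 CPM (1115 to 1144), a ratio of -0.28 (-0.30 to -0.25). Tnfrsf18, which encodes GITR, had -0.29, and Tnfrsf4 and Slamf7 -0.27 each. Those 4 genes are among the 9 below 0. Cytokine receptors had 22 tested members, none past 1.5-fold, with a median of 0.00 and ratios from -0.34 to 0.32. Il2rg, the common gamma chain, had 1182 and 1058 CPM, and Il2ra, the alpha chain of the IL-2 receptor, 120.3 and 104 CPM. Il12rb1 had 0.32, Ifnar1 0.22 and Il27ra -0.22.

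NK-type lectin receptors had 13 tested members of 26, 1 higher (7.69%, beside 1.40%) and 2 lower (15.4%, beside 0.511%), and a median of -0.16. Klrd1, the CD94 chain and the most abundant, had 1106 and 1164 CPM. Klrb1b had 25.9 CPM (23.8 to 28.2) and 11.6 CPM (10.2 to 13.2), a log2 ratio of -1.16 (-1.38 to -0.94). Klra5, a Ly49 receptor, had 21.9 and 10.5 CPM, a ratio of -1.07 (-1.30 to -0.83), with UMIs in 69 and 40 cells. Klri2 had 34.8 and 52.6 CPM, a ratio of 0.60, and Klrh1, listed as Gm156, 87.1 and 61.3 CPM, a ratio of -0.51. In the CD45+ sort Klrb1b had 0.90 and Klra5 1.21, the opposite direction, on 203 isotype cells.

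Transcription factors of effector and exhausted cells had 30 tested members, 3 higher (10%, beside 1.40% of all genes tested) and 0 lower, and a median of 0.06. Tox, which sustains exhausted T cells, had 23.4 CPM under isotype (21.3 to 25.6) and 39.3 CPM under anti-PD1 (36.7 to 42.0), a log2 ratio of 0.75 (0.58 to 0.91), with thinned shares of 3.69% and 6.37% of cells and 0 of 516 and 0 of 185 macrophage barcodes. Nr4a1, a nuclear receptor induced by T cell receptor signals, had 324 and 496 CPM, a ratio of 0.62, and its relative Nr4a2 232 and 288 CPM, a ratio of 0.31. Bhlhe40, the most abundant, had 932 and 938 CPM, and Hif1a 545 and 461 CPM. The third higher member, Maf, was chosen after its values were seen and had 58 and 93 UMIs. In the CD45+ sort Maf had 45 and 80 UMIs, a ratio of -0.79 (-1.33 to -0.23), the opposite direction.

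Genes of naive, memory and stem-like cells were lower as a list: 22 of 25 tested lay below 0, with a median of -0.20 beside 0.03, though none passed 1.5-fold. Ccr7 had 465 CPM under isotype (456 to 474) and 315 CPM under anti-PD1 (308 to 323), a ratio of -0.56 (-0.61 to -0.52), and its thinned share of cells was 22.5% (20.5 to 24.6) and 15.3% (13.7 to 16.9), with at most 0.581% in macrophage barcodes. Dapl1 had a ratio of -0.41. Ly6c2, the most abundant, had 1828 and 1788 CPM. Tcf7, the factor of stem-like cells, chosen after its values were seen, had 22 and 20.7 CPM.

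Immediate early genes, whose transcription starts within minutes of receptor signals and of tissue handling alike, had the most members past 1.5-fold of the 29 lists. Of the 34 genes, all tested, 7 were at least 1.5-fold higher (20.6%, beside 1.40% of all genes tested) and 0 lower, and 32 lay above 0, with a median log2 ratio of 0.22. Zfp36, which encodes an RNA-binding protein that shortens the life of cytokine mRNA, had 188 CPM (182 to 194) and 329.7 CPM (322 to 337), a ratio of 0.81 (0.76 to 0.87). Nfkbiz and Nfkbid, both atypical IkappaB proteins, had 0.71 (0.63 to 0.79) and 0.67 (0.57 to 0.78). Fosb, an AP-1 subunit, had 71.0 and 114 CPM, a ratio of 0.68 (0.59 to 0.78). Egr1 and Gadd45b, both chosen after their values were seen, had 0.64 each. Junb, the most abundant, had 2099 and 2240 CPM, a ratio of 0.09.

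After thinning, Zfp36 was in 22.7% (20.7 to 24.7) of isotype and 31.9% (29.8 to 33.9) of anti-PD1 cells, and Nr4a1 in 33.3% and 40.4%. Macrophage barcodes had Zfp36 in 91.7% and 91.4% and Nr4a1 in 41.3% and 42.2%, which are no measure of background since macrophages transcribe these genes. Time from tumor to droplets is not given for the libraries, and its part in these values was not tested.

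The promoters of immediate early genes were looked at because these genes stood above 0 together. Motifs and genes were chosen after their values were seen. RefSeq promoters on build GRCm38.p6, 300 bases that run from before to just after each gene start, held 29 of the 34 genes with 36 starts, and 32851 starts in all. Both strands were searched, and no motif contains another. The cAMP response element TGACGTCA was in 4 of the 36 (11.1%) and in 1.79% of all promoters, and its variant TGCGTCA in 2 (5.56%) and 2.12%. The AP-1 motif TGANTCA was in 2 (5.56%) and 7.81%. The CArG box, bound by serum response factor, was in 6 (16.7%) and 1.63%, and the kappaB motif in 10 (27.8%) and 8.46%. The 6 promoters with a CArG box belong to 3 genes, Dusp5, Egr2 and Zfp36, and neighbouring starts of a gene share sequence. A match describes letters and not a bound site.

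Of the 7 genes at least 1.5-fold higher, 5 had an entry and 4 had a single one. Egr1 and Nfkbiz are missing. These 4 promoters are printed 5′ to 3′ on the strand of the gene, with the matches to any of the 5 motifs in capitals. Fosb has 1 TGCGTCA, on the other strand, and 1 kappaB match. Nr4a1 has 4 TGCGTCA and 1 kappaB match, Zfp36 has 1 CArG box, and Gadd45b has none of the motifs in this window.
Fosb, chr7:19309996-19310295, minus strand: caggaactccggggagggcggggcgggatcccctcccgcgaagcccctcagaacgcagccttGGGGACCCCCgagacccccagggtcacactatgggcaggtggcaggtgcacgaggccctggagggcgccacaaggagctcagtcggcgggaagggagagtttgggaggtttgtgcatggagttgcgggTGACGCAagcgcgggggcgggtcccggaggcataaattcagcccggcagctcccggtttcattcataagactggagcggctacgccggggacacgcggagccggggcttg
Nr4a1, chr15:101266596-101266895, plus strand: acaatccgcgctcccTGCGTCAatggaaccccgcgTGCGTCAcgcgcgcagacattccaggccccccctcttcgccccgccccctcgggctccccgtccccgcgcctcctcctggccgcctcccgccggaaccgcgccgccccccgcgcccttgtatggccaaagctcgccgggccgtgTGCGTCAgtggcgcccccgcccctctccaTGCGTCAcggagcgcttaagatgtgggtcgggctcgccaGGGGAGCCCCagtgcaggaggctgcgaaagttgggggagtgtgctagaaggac
Zfp36, chr7:28379179-28379478, minus strand: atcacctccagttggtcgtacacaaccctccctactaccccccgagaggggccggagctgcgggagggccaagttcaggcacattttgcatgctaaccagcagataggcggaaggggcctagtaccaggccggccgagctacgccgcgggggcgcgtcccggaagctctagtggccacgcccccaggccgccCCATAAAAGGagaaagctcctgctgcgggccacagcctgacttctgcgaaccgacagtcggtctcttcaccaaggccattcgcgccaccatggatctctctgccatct
Gadd45b, chr10:80929841-80930140, plus strand: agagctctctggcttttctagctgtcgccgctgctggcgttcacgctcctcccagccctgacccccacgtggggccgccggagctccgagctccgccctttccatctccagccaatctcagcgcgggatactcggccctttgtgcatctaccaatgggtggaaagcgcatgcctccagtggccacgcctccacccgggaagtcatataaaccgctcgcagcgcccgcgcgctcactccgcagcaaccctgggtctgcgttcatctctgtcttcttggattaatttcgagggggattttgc

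Genes that brake T cell receptor signals had 28 tested members, 1 higher (Nr4a1, also on other lists, 3.57%, beside 1.40%) and 0 lower, with 21 above 0 and a median of 0.07. Rgs1, the most abundant, had 679 and 675 CPM. Cd5, a surface brake whose level follows receptor signal strength, had 90.4 CPM (86.3 to 94.6) and 118 CPM (114 to 123), a ratio of 0.39 (0.30 to 0.48). Pag1, an adaptor of Csk, had 0.35, and Ptpn6, which encodes the phosphatase SHP-1, 259 and 207 CPM, a ratio of -0.32. In the list of CD8 T cell identity genes, with 15 tested, 0 past 1.5-fold and a median of 0.04, Cd5 and Cd6 had the largest ratios, 0.39 and 0.36, followed by Lat with 0.22 and Cd247 with 0.21.

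Cytokine signalling through JAK and STAT had 18 tested members, 1 higher (5.56%, beside 1.40%) and 0 lower, and a median of 0.05. Pim1, a kinase that STAT5 induces, had 154 CPM under isotype (149 to 159.9) and 284 CPM under anti-PD1 (277 to 291), a ratio of 0.88 (0.82 to 0.94). It was in 24.9% (22.9 to 27.0) and 38.8% (36.7 to 40.9) of thinned cells. The macrophage barcodes, which transcribe Pim1 themselves, had 56.4% and 57.8%. Socs2 had 0.28, and Stat5a and Stat5b had -0.27 and -0.25.

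Interferon response genes stood slightly above the rest, with exceptions. The type I list had 48 tested members, 0 past 1.5-fold either way, 37 above 0 and a median of 0.14. Rsad2, an antiviral enzyme, had 65.8 CPM under isotype (62.4 to 69.5) and 95.5 CPM under anti-PD1 (91.5 to 99.8), a ratio of 0.54 (0.44 to 0.64), Ifit1bl1 0.47, Ifi203 0.42 and Cmpk2 0.39. Ifi27l2a, the most abundant, went the other way, with 1872 and 1531 CPM, a ratio of -0.29. The list summed to 7224 and 7458 CPM.

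The list of interferon-gamma response and inducible GTPases had 25 tested members, 1 higher (4%, beside 1.40%) and 0 lower, 22 above 0 and a median of 0.22. Iigp1, a GTPase that attacks parasite vacuoles, had 14.8 CPM (13.2 to 16.6) and 28.2 CPM (26.0 to 30.5), a ratio of 0.92 (0.72 to 1.13), but 0.31 with no gate and 0.28 in the CD45+ sort. Irf1, a factor that interferon-gamma induces, had 180.5 and 254 CPM, a ratio of 0.50 (0.43 to 0.56), and Tgtp2, a GTPase, 0.38. The 3 members below 0 were Ifitm1, Ifitm2 and Ifitm3, membrane proteins that block virus entry. Ifitm1, the most abundant of the list, had 3483 and 2835 CPM and Ifitm3 535 and 414 CPM, so the list sum was lower under anti-PD1, 7204 and 6703 CPM, while its median was above 0. Ifitm2 was chosen after its values were seen.

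Genes of MHC class I presentation had 20 tested members, 0 past 1.5-fold, 18 above 0 and a median of 0.06. H2-K1, the most abundant, had 4191 and 4175 CPM. The nonclassical H2-T22 had 162 and 214 CPM, a ratio of 0.40 (0.34 to 0.47), H2-T10 had 0.33, H2-Q4 0.20, and the peptide transporter gene Tap2 0.14. Class II genes, which mouse T cells hardly transcribe, summed to 187 and 173 CPM, with 6 tested, 1 higher (16.7%, beside 1.40%) and a median of 0.24. Cd74, the most abundant, had 127 and 103 CPM, H2-DMa 17.0 and 22.6 CPM, and the higher gene, H2-Aa, chosen after its values were seen, 100 and 176 UMIs. With no gate H2-DMa had -0.23 and Cd74 -0.96, and in the CD45+ sort Cd74 had 0.93.

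Genes of cell division were lower as a list in the mitotic phases and level in S phase. The list of G2 and M phase had 46 tested members, 0 past 1.5-fold, 37 below 0 and a median of -0.19. Cenpe, a kinetochore motor, had 31.1 and 22.4 CPM, a ratio of -0.47, Cdc20 -0.44, Cenpf -0.43 and Tpx2 -0.35, while Hmgb2, the most abundant, had 579 and 614 CPM. Without cycling cells Cenpe had 0.12 and Cenpf 0.86, and those cells were chosen by genes of the same phase. S phase genes had 38 tested members, 0 past 1.5-fold and a median of -0.04. Dut, the most abundant, had 189.9 and 185 CPM, Rrm2 had a ratio of -0.19, Lig1 and Uhrf1 -0.13 each and Rpa2 0.22.

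By cells the difference was small. Cells with at least 2 UMIs over Mki67, Top2a, Birc5, Cdk1 and Ccnb1 were 21.8% of the cells under isotype (19.9 to 23.8) and 19.8% under anti-PD1 (18.1 to 21.6), and after thinning 7.62% (6.41 to 8.98) and 7.88% (6.75 to 9.13). Free RNA and depth enter such shares, and no phase was called. These cells held 34.7% and 32.7% of all UMIs. Histone genes that follow DNA replication had 39 tested members, 0 higher, 1 lower (2.56%, beside 0.511%; Hist1h2bh, chosen after its values were seen) and a median of -0.02. Hist1h1e, the most abundant, had 121 and 128 CPM, Hist1h1b had 0.20, Hist1h4d 0.15 and Hist1h2bc -0.07. Hist1h3e had 24.6 and 16.5 CPM, a ratio of -0.58, but 0.20 without the 5% of cells with the most UMIs, so that its direction rests on those cells.

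Genes of glycolysis and hypoxia were lower together. Of 32 tested, 30 lay below 0 (beside 3957 of all 9592), 1 was at least 1.5-fold lower (3.12%, beside 0.511%) and 0 higher, with a median log2 ratio of -0.22, and their sum was 18121 CPM under isotype and 15747 CPM under anti-PD1. Gapdh, the most abundant, had 3660 CPM (3633 to 3686) and 3295 CPM (3271 to 3320), a ratio of -0.15 (-0.17 to -0.14). Ndrg1, which hypoxia induces, had 52.7 and 34.0 CPM, a ratio of -0.63 (-0.77 to -0.50). Slc16a3, the lactate exporter MCT4, had 86.5 and 61.8 CPM, a ratio of -0.49, Ankrd37 -0.37 and P4ha1 -0.32. The 2 members above 0 were Hk2 and Slc16a1, chosen after their values were seen, with 0.29 and 0.24. Depth per cell was also lower under anti-PD1, and its part in this list was not tested.

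The respiratory chain and other housekeeping lists were level. Nuclear genes of oxidative phosphorylation had 75 tested members, 0 past 1.5-fold, a median of -0.00 and ratios from -0.14 for Ndufs1 to 0.19 for Sdhb. Cox8a, the most abundant, had 1079 and 1072 CPM, Ndufa10 had 0.13 and Uqcrc1 0.11. The constitutive proteasome had 31 tested members, a median of 0.01 and ratios from -0.12 for Psmd1 to 0.08 for Psmd6. Psmb3, its most abundant member, had 416 and 425 CPM, and Psmb2 and Psmb7 had 0.06 each. Lipid and cholesterol synthesis had 23 tested members, none past 1.5-fold, and a median of -0.00. Acly, which makes acetyl-CoA, had -0.15, Srebf2 -0.13, Insig1 0.29 and Cyp51 0.13. In the CD45+ sort the median of the lipid list was -0.25.

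Heat shock and unfolded protein genes had 27 tested members, none past 1.5-fold, and a median of -0.04. Hspa1a, a stress-induced chaperone, had 32.9 and 28.0 CPM, a ratio of -0.23, and Hspa8, the most abundant, 2516 and 2453 CPM. Hsph1 had -0.25, Hsp90ab1 -0.17 and Hspe1 -0.14.

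Metallothioneins and redox genes had 21 tested members, 2 higher (9.52%, beside 1.40%) and 0 lower, 18 above 0 and a median of 0.13. Mt1 had 250.1 CPM (243 to 257) and 346 CPM (338 to 354), a ratio of 0.47 (0.42 to 0.52), and Mt2 25.4 and 38.8 CPM, a ratio of 0.61 (0.45 to 0.77), though -0.13 over all barcodes with no gate. Mt3, chosen after its values were seen, was the other higher gene, with 0.63. Txn1, the most abundant, had 502 and 501 CPM, Prdx4 had 0.31 and Txnip 0.27. Genes of survival and apoptosis had 29 tested members, none past 1.5-fold, and a median of 0.03. Bcl2, which blocks apoptosis, had 168 and 133 CPM, a ratio of -0.33 (-0.41 to -0.26). Bcl2l11, which encodes BIM, had -0.24, Birc3 0.26 and Casp1 0.23, and Bcl2a1b, the most abundant, 514 and 524 CPM.

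**Figure D2:**
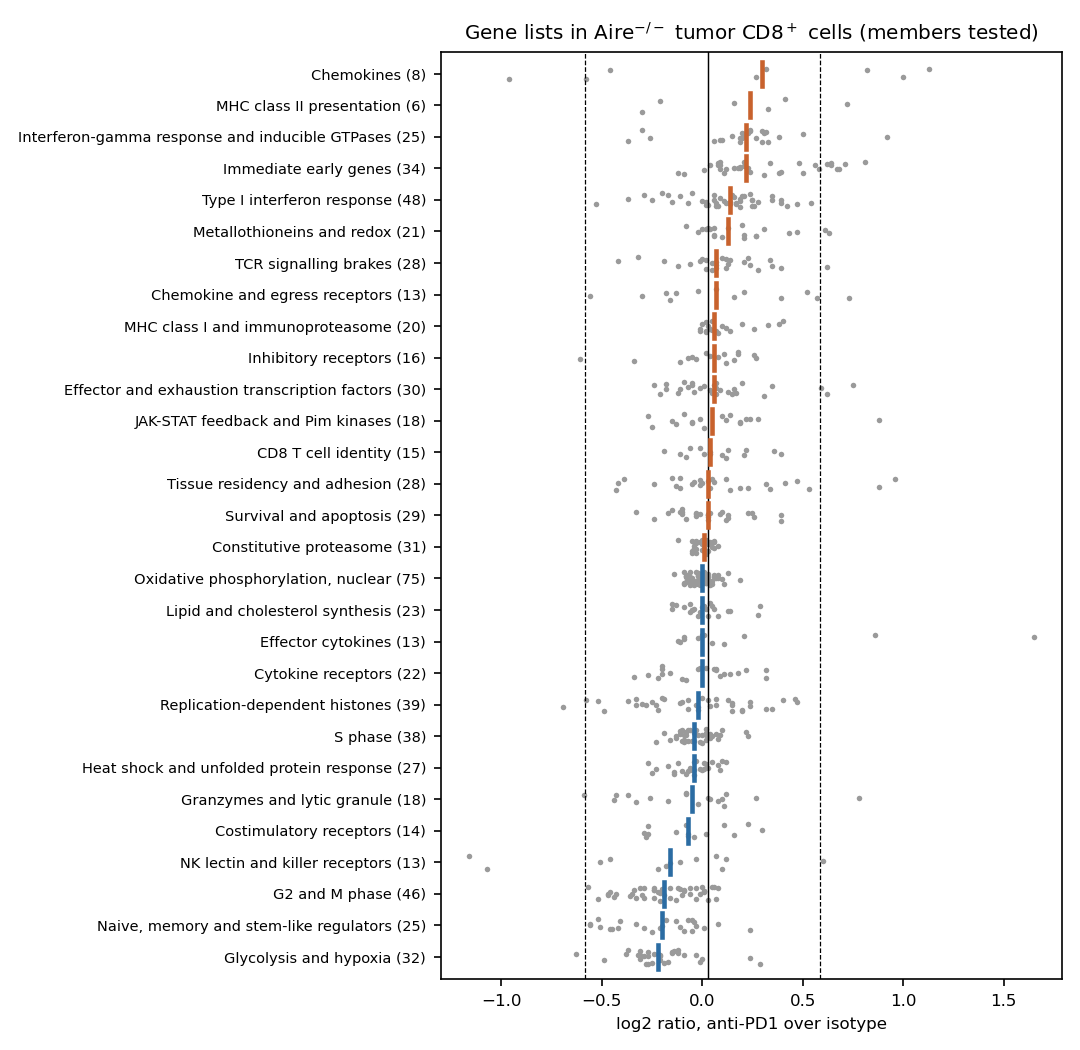
Log2 ratio of anti-PD1 over isotype (horizontal axis) for the tested members of 29 gene lists, 1 grey point a gene and a colored bar at the median of each list, with the number tested in brackets. The solid line marks the median of all genes tested, 0.03, and the dashed lines 1.5-fold; the medians run from -0.22 for glycolysis and hypoxia to 0.30 for chemokines.

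Rows kept out of the ranking were given as groups. Mitochondrial rows, 20 of 37 of them tested, summed to 18205 and 20214 CPM, a log2 ratio of 0.15, with 2 of the 20 higher, beside 1.40% of all genes tested, of which ATP6 had 1267 and 1930 CPM, a ratio of 0.61 (0.58 to 0.63). The other, TrnD, had 47 and 79 UMIs, and both were chosen after their values were seen. In the CD45+ sort ATP6 had 1969 and 2195 CPM, a ratio of 0.16, and TrnD had a ratio of -0.27. In *Aire*+/+ tumors ATP6 had 2040 and 2063 CPM, a ratio of 0.02. Of the 13 rows of receptor and immunoglobulin constant segments, 6 had UMIs, with 514 and 438 in all. Xist, Tsix and Y-linked genes summed to 222 and 209 CPM, mostly Xist, with 189.9 and 187 CPM, and of the Y-linked genes Erdr1 alone, which also lies on the X chromosome, had UMIs. Haemoglobin genes had 0 UMIs in both libraries.

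**Figure D3:**
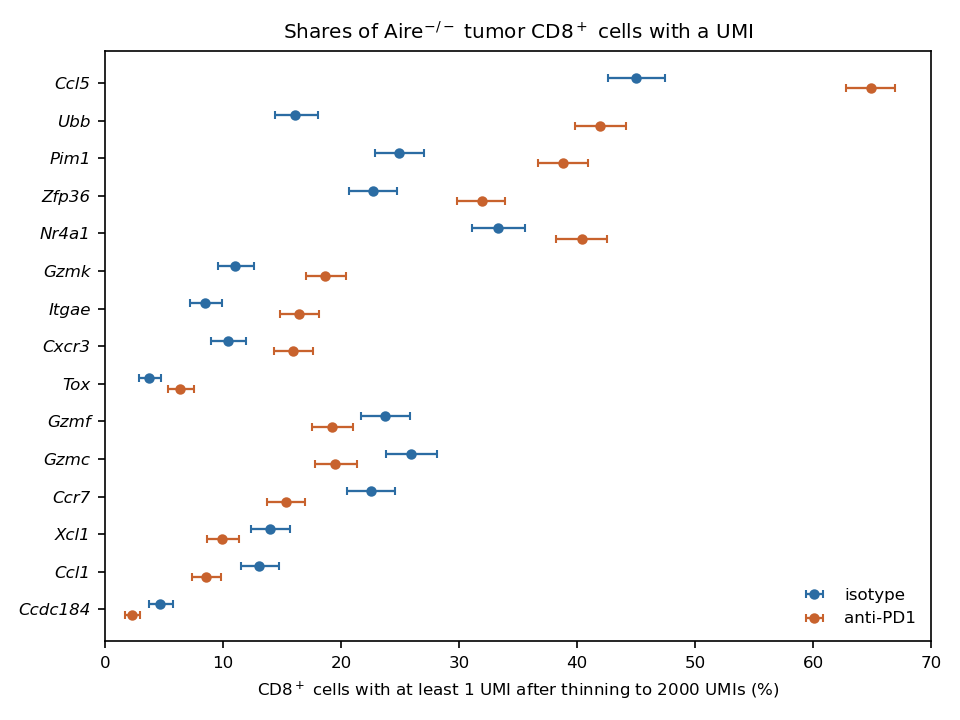
Share of CD8+ cells with at least 1 UMI of a gene (percent, horizontal axis) after each cell was thinned to 2000 UMIs, for 15 genes, in the isotype library (blue, 1706 cells) and the anti-PD1 library (orange, 2056 cells), with bars for 95% Clopper-Pearson intervals. The anti-PD1 share is the higher for the 9 genes from Ccl5 to Tox and the lower for the 6 from Gzmf to Ccdc184.

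The largest ratios of all genes tested came from few cells. These genes were chosen after their values were seen. Ltf, which encodes lactoferrin, had 1 UMI under isotype and 121 under anti-PD1, a log2 ratio of 6.82 with a counting interval of 4.32 to 12.14, and the 121 UMIs were in 9 cells. Dsc2, a desmosomal cadherin, had 10 and 174 UMIs in 5 and 51 cells, a ratio of 4.03 (3.11 to 5.11). C2cd4b had 21 and 99 UMIs in 9 and 41 cells. The lowest ratio was that of Fscn1, -3.09, where 1 cell held 92.5% of the 120 isotype UMIs against 15 UMIs under anti-PD1. In the CD45+ sort Fscn1 had 1 and 145 UMIs, a ratio of 5.56 (3.06 to 10.88), the opposite direction. Counting intervals treat UMIs as independent and so are too narrow for such genes.

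Markers of other cell types were summed over the same cells. Of 12 macrophage markers 12 and 11 were detected, with Adgre1 at 0 under anti-PD1, and they summed to 31.1 CPM (28.7 to 33.6) and 29.2 CPM (27.0 to 31.6), Cd68 being the most abundant. The 3 C1q genes belong to the rule that chose the cells. All 7 neutrophil markers were at 0 under isotype, and 2 UMIs were found under anti-PD1, and the 5 red cell markers were at 0 in both. Of 8 B cell markers 4 and 1 were detected, and they summed to 2.77 and 4.03 CPM, nearly all Cd79b, with Ms4a1, Pax5 and Ebf1 among those at 0 in both and Cd79a, Fcmr and Blk at 0 under anti-PD1. These sums were small in both libraries.

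Lists that share genes with T cells gave larger sums. Of 8 monocyte markers 5 were detected, summing to 2380 and 2309 CPM, of which Ly6c2 gave 1828 and 1788, while Chil3, F13a1 and Thbs1 were at 0. Of 10 conventional dendritic markers 8 and 6 were detected, with Clec9a and Cd209a at 0 in both and Flt3 and Ccl22 at 0 under anti-PD1. They summed to 496 CPM (486 to 505) and 341 CPM (333 to 349), of which Ccr7 gave 465 and 315. Plasmacytoid dendritic markers, 3 of 6 detected in each, summed to 436 and 453 CPM, almost all Bst2, with Siglech, a gene of the rule, and Cd300c at 0 in both, Klk1 at 0 under isotype and Cox6a2 under anti-PD1. NK markers, 7 and 8 of 9 detected, summed to 1709 and 1984 CPM, with Gzma the most abundant at 1020 and 1229 and Klra8 at 0 in both and Klra4 under isotype. CD8 T cells transcribe Ly6c2, Ccr7, Bst2 and Gzma themselves.

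Markers of CD4 and regulatory T cells, 8 of 8 detected, summed to 997 and 953 CPM, with Ctla4 the most abundant at 514 and 542. Gamma-delta T markers, 6 and 3 detected of the 7 in the tables, summed to 8.06 and 8.20 CPM, led by Cd163l1 under isotype and Maf under anti-PD1, with Sox13 at 0 in both and Il17a and Blk among those at 0 under anti-PD1. Mast cell and basophil markers summed to 0.693 and 1.07 CPM, 3 of 6 detected, led by Mcpt8, with Fcer1a, Gata2 and Il4 at 0. Epithelial markers of the tumor summed to 13.2 and 16.6 CPM, 4 of 7 detected, led by Cdh1, with Krt8, Krt19 and Krt20 at 0. Fibroblast markers summed to 0.297 and 0.463 CPM, 2 and 4 of 6 detected, with Col3a1 and Pdgfra at 0 in both and Col1a2 and Dcn under isotype, and endothelial ones to 3.22 and 3.85 CPM, 2 of 6 detected, nearly all Pecam1, with Cdh5, Kdr, Cldn5 and Esam at 0. Their part in the ratios of other genes was not tested.

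The CD45+ sort of the same tumors holds another capture of the same pooled mice, so it repeats the measurement and not the animals. The same rule took 203 of 1860 barcodes of its isotype library (10.9%, 9.53 to 12.4) and 701 of 2076 of its anti-PD1 library (33.8%, 31.7 to 35.8). Of the 56 genes at least 1.5-fold higher in the CD8+ sort that could be tested there, 49 had the same sign and 22 also passed 1.5-fold, where 55.6% of all genes were above 0. Of 13 lower genes, 9 had the same sign and 7 also passed 1.5-fold. Of all 7056 genes tested in that sort, 274 were at least 1.5-fold higher and 101 lower. Across 7030 genes Pearson's r of the log2 ratios was 0.30 and Spearman's rho 0.34, and 0.45 and 0.41 across the 5149 at 20 CPM or more. Genes are not independent replicates, and 203 cells give few counts for weakly expressed genes.

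Ccl5 had a log2 ratio of 1.5 in the CD45+ sort beside 1.0, Itgae 1.27 beside 0.96, Tox 1.01 beside 0.75, Pim1 0.91 beside 0.88, Zfp36 0.85 beside 0.81, Gzmk 0.71 beside 0.78 and Nr4a1 0.63 beside 0.62. Of the lower genes, Ccl1 had -0.80 beside -0.58, Xcl1 -0.63 beside -0.46 and Ndrg1 -0.68 beside -0.63. These 10 were chosen after their values were seen. Other named genes past 1.5-fold had the opposite direction there, among them Tff1, Krcc1, Ccr2, Klrb1b, Klra5 and Filip1l. So had Fscn1 (5.56 beside -3.09), Maf (-0.79 beside 0.59) and TrnD (-0.27 beside 0.65). Gzmc had -0.18 beside -0.59 and Ccr7 -0.31 beside -0.56. Of the 29 list medians 10 moved there past an interval read from the ordered ratios of their members, and 19 did not. That interval covers the spread between genes, taken as independent, and not counting error. Among all 29, medians were 0.93 for class II beside 0.24, 0.53 for histones beside -0.02, 0.39 for immediate early genes, -0.26 for glycolysis and hypoxia, 0.27 for interferon-gamma genes, -0.08 for G2 and M phase and -0.04 for naive and memory genes.

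The same contrast in *Aire*+/+ tumors, CD8+ sort, uses no library of the *Aire*-/- pair and rests on 2481 isotype and 2067 anti-PD1 cells. Across 9568 genes Pearson's r with the *Aire*-/- ratios was 0.27 and Spearman's rho 0.27, and 0.40 and 0.37 across the 5150 at 20 CPM or more. Of 126 higher genes tested there, 89 had the same sign and 17 passed 1.5-fold, and of 48 lower genes 35 and 8. Over all genes 54.1% were above 0 there, and 129 of 9998 were at least 1.5-fold higher and 135 lower. The median of immediate early genes was 0.35 there beside 0.22 without Aire, and that of glycolysis and hypoxia -0.18 beside -0.22. Naive and memory genes had -0.24 beside -0.20, and type I interferon genes 0.33 beside 0.14. The list of G2 and M phase had -0.01 beside -0.19, and chemokines 0.02 beside 0.30. Ccl5 had a log2 ratio of 0.57, Itgae 0.76, Gzmk 0.50, Nr4a1 0.71 and Ccdc184 -0.79. Pim1 and Tox had 0.41 each and Zfp36 0.14. All were in the direction seen without Aire. The lists and genes given here were chosen after their values were seen. Gzmf had 0.03 beside -0.44, Ccr7 0.21 beside -0.56, Pdcd1 0.51 beside -0.03 and Cxcl10 0.13 beside 1.13. Whether these ratios differ between the genotypes was not tested, since each has 1 library a side.

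**Figure D4:**
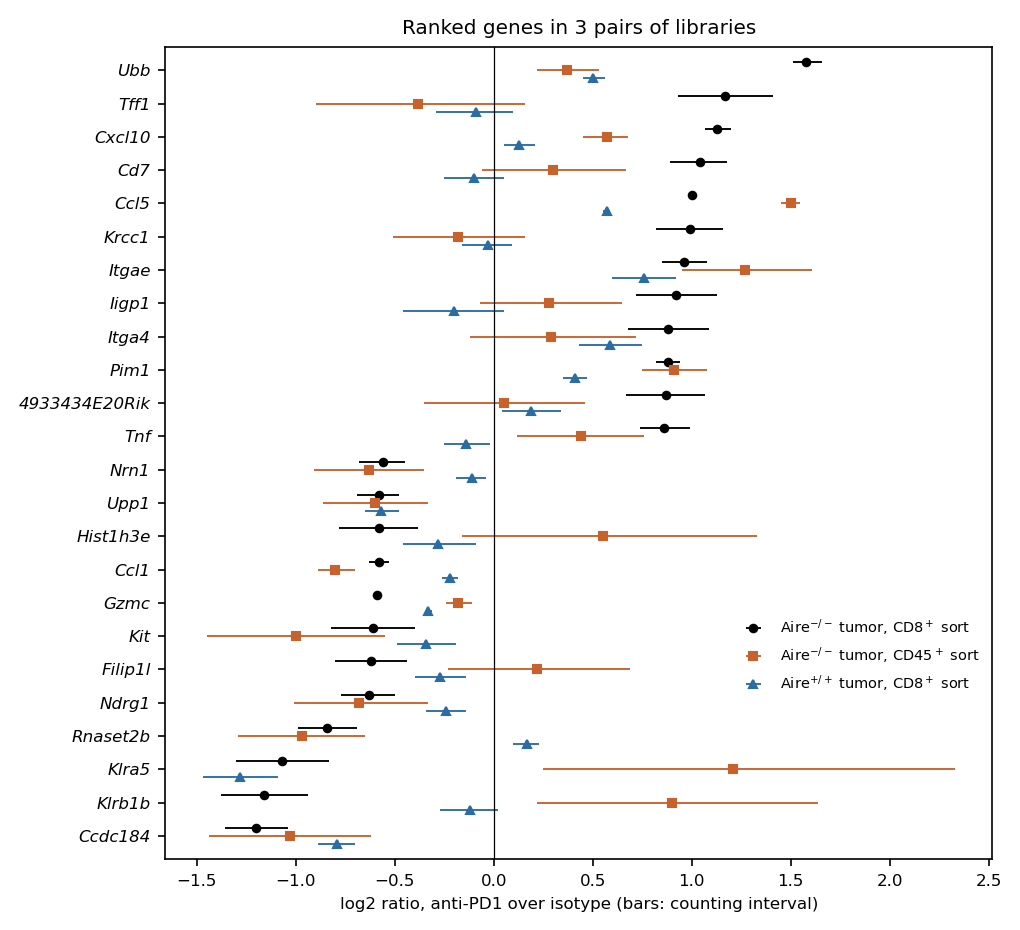
Log2 ratio of anti-PD1 over isotype (horizontal axis) for the 12 highest and 12 lowest ranked genes in 3 pairs of libraries: *Aire*-/- tumor CD8+ sort (black), its CD45+ sort (orange) and *Aire*+/+ tumor CD8+ sort (blue), with bars for counting intervals. Ccl5, Itgae and Pim1 are above 0 and Ccdc184 and Kit below 0 in all 3 pairs, while Klrb1b and Klra5 lie on opposite sides in the *Aire*-/- sorts.

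In the spleen of the same *Aire*-/- groups, CD8+ sort, with 2298 isotype and 2548 anti-PD1 cells, the ratios bore little relation to those of the tumor. Across 8705 genes Pearson's r was 0.04 and Spearman's rho -0.00. Of 83 higher genes tested there 48 had the same sign and 3 passed 1.5-fold, and of 21 lower genes 12 and 0, where 61.0% of all genes were above 0 and, of 9045, 65 were at least 1.5-fold higher and 103 lower. Ccl5 had -0.13, Pim1 0.02, Zfp36 -0.02 and Gzmk -0.05, while Itgae had 0.51. The median of the immediate early genes was 0.06 and that of glycolysis and hypoxia 0.12.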

How the data were processed

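UMI counts per gene and barcode, as the authors deposited them, with GRCm38 as the build named in the labels, were used. Rows that share a symbol were summed (327 symbols), leaving 24496. The members and gene lists were chosen with earlier results of these data known. UMIs were summed over the cells of each library and given as CPM. Genes with at least 100 UMIs over the pair were counted as tested. Named are the 12 largest and 12 smallest log2 ratios among genes at 20 CPM or more in either library, in each of 29 lists the member most abundant under isotype and, at 20 CPM or more, up to 4 with the ratios farthest from 0, and the genes of the gate, Aire and Pdcd1; segments of receptors, Xist and Y-linked, mitochondrial and haemoglobin genes were kept out of the ranking. Where a count was 0, a floor of 3 counts was used. Macrophage barcodes had at least 10 C1q UMIs and 0 of Cd3. List members not in the tables (Pvrig, Tcrg-V6, Trac, Trbc1, Trbc2, Zfp683) were not analysed. Doublets were not looked for or removed. Thinning used seed 0. The code, in Python 3.11.15 with numpy 2.4.6, pandas 2.3.3, scipy 1.17.1 and matplotlib 3.10.9, was tested on simulated data.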

Additional observations from a re-analysis of the deposited data

How the results depend on the processing

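No paired analysis was possible because each group has 1 library and mice were pooled within it. Scaling by the median of ratios or by TMM lowered each log2 ratio by 0.03, and gave 115 and 120 higher and 62 and 61 lower genes, in place of 134 and 49. With a minimum of 50 UMIs over the pair the counts were 251 higher and 111 lower, and with 300 they were 55 and 16, since more or fewer weakly counted genes were tested. Taking the mean over cells scaled to 10000 UMIs gave 91 lower genes, no gate 326, and the CD45+ sort 274 higher and 101 lower. The cause was not tested. Without cells under 200 genes or over 20% mitochondrial UMIs, with a stricter gate, after thinning, without the 5% deepest cells and without cycling cells, both counts were within 1.5 times those reported. The genes behind them differed: after thinning 33 of the 134 higher and 10 of the 49 lower genes were shared, and without cycling cells 81 and 19. Among the 30 genes past 1.5-fold named by rule, some log2 ratios reversed. In the CD45+ sort they were those of Tff1 (-0.38), Krcc1 (-0.18), Klrb1b (0.90), Klra5 (1.21, on 10 and 71 UMIs), Filip1l (0.22) and Ccr2 (-0.12). With no gate it was that of Mt2 (-0.13). Of genes named after their values were seen, Fscn1 (5.56), Maf (-0.79) and TrnD (-0.27) also reversed in the CD45+ sort. The cause was not tested. Named genes below 1.5-fold could change sign too, as Hist1h3e (0.55) and Cd74 (0.93) did in the CD45+ sort and H2-DMa (-0.23) with no gate. Of the 30 genes past 1.5-fold named by rule, 29 kept their direction with no gate, 24 in the CD45+ sort and all 30 in each other setting. Genes named after their values were seen are not in these counts. With 1 library a group, differences between mice, tumors, sorts and captures cannot be told apart from the antibody.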
